A study of Mus musculus with 9 samples.

Results

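Transcript levels of 9 genes of the regulatory T cell (Treg) lineage were followed in semimature OT-II thymocytes: Foxp3, Ahr, Il2ra, Il2rb, Ctla4, Lrrc32, Nrp1, Gpr83 and Capg. They were taken by gene symbol from a table of 24594 genes, and all 9 were present. The table gives RPKM, a read density scaled to exon length and to library size, for 9 bulk RNA-seq libraries. Each library came from CD4+ CD8- CD69+ thymocytes bearing the OT-II receptor chains Valpha2 and Vbeta5, sorted from a mixed bone marrow chimera at 4.7 weeks after reconstitution. Donor marrow was OT-II control (Nr4a1+/+ Nr4a3+/+, F1 of BoyJ with B6.Cg-Tg(TcraTcrb)425Cbn/J), OT-II Nr4a1-/- Nr4a3-/- (double knockout, DKO, on C57BL/6), and an excess of non-transgenic wild-type marrow that every chimera also received. Lethally irradiated hosts were either wild-type mice (WT hosts), labelled BoyJ although the study's methods describe WT hosts as F1 progeny of a cross with BoyJ, or F1 mice of BoyJ and a C57BL/6 line with the transgene Tg(Ins2-TFRC/OVA)296Wehi (RIPmOVA hosts), in which the rat insulin promoter drives membrane-bound ovalbumin, the antigen of OT-II cells, in pancreatic islets and also in medullary thymic epithelium. The 4 groups were OT-II from WT hosts (n = 2), DKO from WT hosts (n = 3), OT-II from RIPmOVA hosts (n = 2) and DKO from RIPmOVA hosts (n = 2). Most Treg cells of these chimeras come from the non-transgenic donor according to the labels, so the sorted OT-II cells are not the main source of Treg cells in these mice, and the labels give no CD25 gate. In such bulk libraries, fewer cells of a type and less RNA per cell cannot be told apart.

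Treg cells restrain immune responses and depend on the transcription factor FOXP3. In the thymus they arise from CD4 single-positive cells that meet self-antigen. Strong receptor signals first raise the high-affinity interleukin 2 (IL-2) receptor chain CD25, encoded by Il2ra. IL-2 then signals through CD25, the beta chain encoded by Il2rb and the shared gamma chain to STAT5, which helps to switch Foxp3 on. The same self-antigen signals can instead end in death of the cell (clonal deletion), and NR4A nuclear receptors are induced by them. CTLA4, an inhibitory receptor that takes the costimulatory ligands of CD28, LRRC32 (GARP), which holds latent TGF-beta on the surface, and neuropilin 1, encoded by Nrp1, are surface proteins of Treg cells. AHR is a ligand-activated transcription factor, GPR83 is a G protein-coupled receptor whose transcript is enriched in Treg cells, and CAPG caps the growing ends of actin filaments.

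All 9 are protein-coding genes in GENCODE vM21 on GRCm38 (mm10). Foxp3 lies on the plus strand at chrX:7573644-7595245. It overlaps Ppp1r3f, Ccdc22 and Gm36995 on the other strand and Flicr, a noncoding gene, on its own strand. Of the 4577 exonic bases of Foxp3 in that annotation, 1443 (31.5%) are also exonic in another gene, 853 of them in Flicr. Il2ra lies at chr2:11642807-11693193 and Ctla4 at chr1:60887000-60915832, both on the plus strand and with no exonic base shared. Lrrc32 (chr7:98489283-98502181, plus strand), Il2rb (chr15:78479256-78495271, minus strand), Gpr83 (chr9:14860210-14870789, plus strand) and Capg (chr6:72544391-72562983, plus strand) likewise share none. Ahr (chr12:35497974-35535038, minus strand) shares 127 exonic bases with Gm48236, and Nrp1 (chr8:128358604-128503363, plus strand) shares 80 with Mir1903. The exon length behind the RPKM values was 11112 bases for Foxp3, which is 2.43 times its exonic length in vM21. For the other genes this ratio ran from 0.95 (Il2ra) to 1.85 (Lrrc32). Il2rb is on the chromosome of the targeted gene Nr4a1, 22.8 Mb away from it, and Ctla4 is on the chromosome of Ptprc, the CD45 gene whose alleles mark the donors, 77.1 Mb away.

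The start-site windows of 4 genes, chosen among the 6 for which windows were on hand, are shown: Foxp3, Il2ra, Ctla4 and Gpr83. Each is the 250 bases before a RefSeq transcript start (GRCm38.p6), printed from 5′ to 3′ on the strand of the gene. The Foxp3 window belongs to the downstream one of its 2 RefSeq starts and lies in an exon of Flicr. Capitals mark matches on either strand to AAGGTCA, to TTCNNNGAA or to GCGTG.
Foxp3, chrX:7580233-7580482, plus strand: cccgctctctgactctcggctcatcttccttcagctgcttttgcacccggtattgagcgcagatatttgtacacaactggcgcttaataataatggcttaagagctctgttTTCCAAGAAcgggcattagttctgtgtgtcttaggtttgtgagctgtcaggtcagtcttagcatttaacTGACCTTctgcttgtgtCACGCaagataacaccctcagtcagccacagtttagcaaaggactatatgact
Il2ra, chr2:11642542-11642791, plus strand: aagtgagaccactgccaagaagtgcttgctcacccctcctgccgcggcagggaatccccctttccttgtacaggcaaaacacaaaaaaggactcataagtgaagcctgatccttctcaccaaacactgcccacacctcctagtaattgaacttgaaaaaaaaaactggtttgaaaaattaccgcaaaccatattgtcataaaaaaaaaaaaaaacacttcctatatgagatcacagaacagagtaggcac
Ctla4, chr1:60908775-60909024, plus strand: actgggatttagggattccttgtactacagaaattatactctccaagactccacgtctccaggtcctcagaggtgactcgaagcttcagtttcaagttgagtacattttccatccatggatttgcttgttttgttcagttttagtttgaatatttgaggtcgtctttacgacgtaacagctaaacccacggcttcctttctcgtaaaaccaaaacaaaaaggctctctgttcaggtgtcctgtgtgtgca
Gpr83, chr9:14859960-14860209, plus strand: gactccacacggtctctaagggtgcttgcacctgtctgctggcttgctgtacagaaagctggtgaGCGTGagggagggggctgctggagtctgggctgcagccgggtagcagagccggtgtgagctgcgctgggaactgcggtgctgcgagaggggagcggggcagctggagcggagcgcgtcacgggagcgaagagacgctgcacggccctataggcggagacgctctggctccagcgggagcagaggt
Windows were on hand for 6 of the genes (7 windows), and none are printed for Ahr, Il2rb and Lrrc32. The NR4A monomer site AAAGGTCA occurred in 0 of these 7 windows and in 1.34% of the 32851 windows of all genes. Its 7-letter core AAGGTCA, a part of that site, occurred in the Foxp3 window shown and in the Nrp1 window, and in 4.08% of all windows. The STAT motif TTCNNNGAA occurred in the Foxp3 window shown, 139 bases before the start, and in 7.02% of all windows. The AHR core GCGTG occurred in 4 of the 7 windows, both of Foxp3 among them, and in 28.2% of all windows. The AP-1 motif TGANTCA (6.75% of all windows) and the forkhead motif TGTTTAC (3.17%) occurred in 0, and the NFAT core GGAAA (55.6%) occurred in 5. These are matches of letters only.

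The libraries held 15521400 to 25052800 reads, a depth worked out from the value of a single read. At gene level, neither targeted gene was lower in the libraries labelled DKO. Nr4a1 was 73.4 ± 17.9 (SD, n = 2) RPKM in OT-II and 76.0 ± 14.3 (SD, n = 3) in DKO-labelled libraries of WT hosts, and Nr4a3 in RIPmOVA hosts was 4.69 ± 1.38 (SD, n = 2) in OT-II and 15.3 ± 1.7 (SD, n = 2) in DKO-labelled libraries. Whether the counted exons include the deleted parts is not given in the sources used here, so the genotype of each library rests on its label. All 7 CD4 single-positive thymocyte markers were at 1 RPKM or more in every library (summed level 1236 to 1433 RPKM). The summed level of 6 thymic epithelial markers was 8.23 to 11.8 RPKM in DKO RIPmOVA and 2.75 to 6.98 RPKM in the other groups. In each library 1 of these 6 was at 1 RPKM or more, except in DKO RIPmOVA replicate 2, which had 2. That of 5 B cell markers was 2.72 to 10.46 RPKM over all libraries. The part of epithelial and B cells in the results was not tested. Reads on 1490 sensory receptor genes, which thymocytes are not known to use, summed to 293 to 1497 RPM (reads scaled to library size alone), with 1050 and 1497 in the DKO-labelled and 555 and 293 in the OT-II libraries of RIPmOVA hosts. Divided by the exon length of these genes, this came to a density of 0.0897 to 0.458 RPKM, a measure of low, spread-out signal that is set beside the low genes in what follows.

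The 9 genes were chosen with earlier results of these data known, so the shares over all genes are given only as background to the counts. The calls by host and by genotype fell as follows. In OT-II cells, 4 of the 9 genes were higher in RIPmOVA than in WT hosts (Il2ra, Il2rb, Lrrc32 and Ahr), where 1.05% of the 11569 genes tested were called higher. Lrrc32 cannot be read against that share because of the filter described below. In DKO-labelled cells, 5 were higher in RIPmOVA hosts (Il2ra, Il2rb, Ctla4, Nrp1 and Capg), against 1.52% of all genes, and Gpr83 was lower, against 0.156%. Within RIPmOVA hosts, 3 were lower in DKO-labelled than in OT-II cells (Foxp3, Ahr and Lrrc32), where 0.562% of all genes were, a share that Foxp3 and Lrrc32 cannot be read against because of the filter described next. Within WT hosts 0 of 9 were called between the genotypes, against 0.0605% of all genes. For the interaction, the host effect in DKO-labelled minus that in OT-II cells, the count was also 0, against 0.0173%. A gene was called in limma's test across all genes when its adjusted p did not exceed 0.05 and its log2 change was 1 or more in size, on the scale log2(RPKM + 0.5), which understates the change of low genes. Genes tested had 1 RPKM or more in at least 2 libraries, and Foxp3 and Lrrc32 met this only through the OT-II libraries of RIPmOVA hosts, where they are high. They could therefore enter the test only with a difference from that group, and with a filter at RPKM 5 neither was fitted and Ahr was the 1 gene of the 9 called between genotypes in RIPmOVA hosts. Without any filter all 3 were called there. The calls rest on few libraries. Without OT-II RIPmOVA replicate 1 or 2, 0 of the 9 genes were called in the host comparison of OT-II cells, where 50 and 56 of all genes tested were called in place of 142. Between genotypes in RIPmOVA hosts 0 of the 9 were called without either, where 21 and 51 of all genes were called in place of 124. Without OT-II WT replicate 1 the host comparison of OT-II cells kept 2 calls, without DKO RIPmOVA replicate 1 that of DKO-labelled cells had 2, and without either DKO RIPmOVA library the genotype comparison in RIPmOVA hosts had 1.

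**Figure D1:**
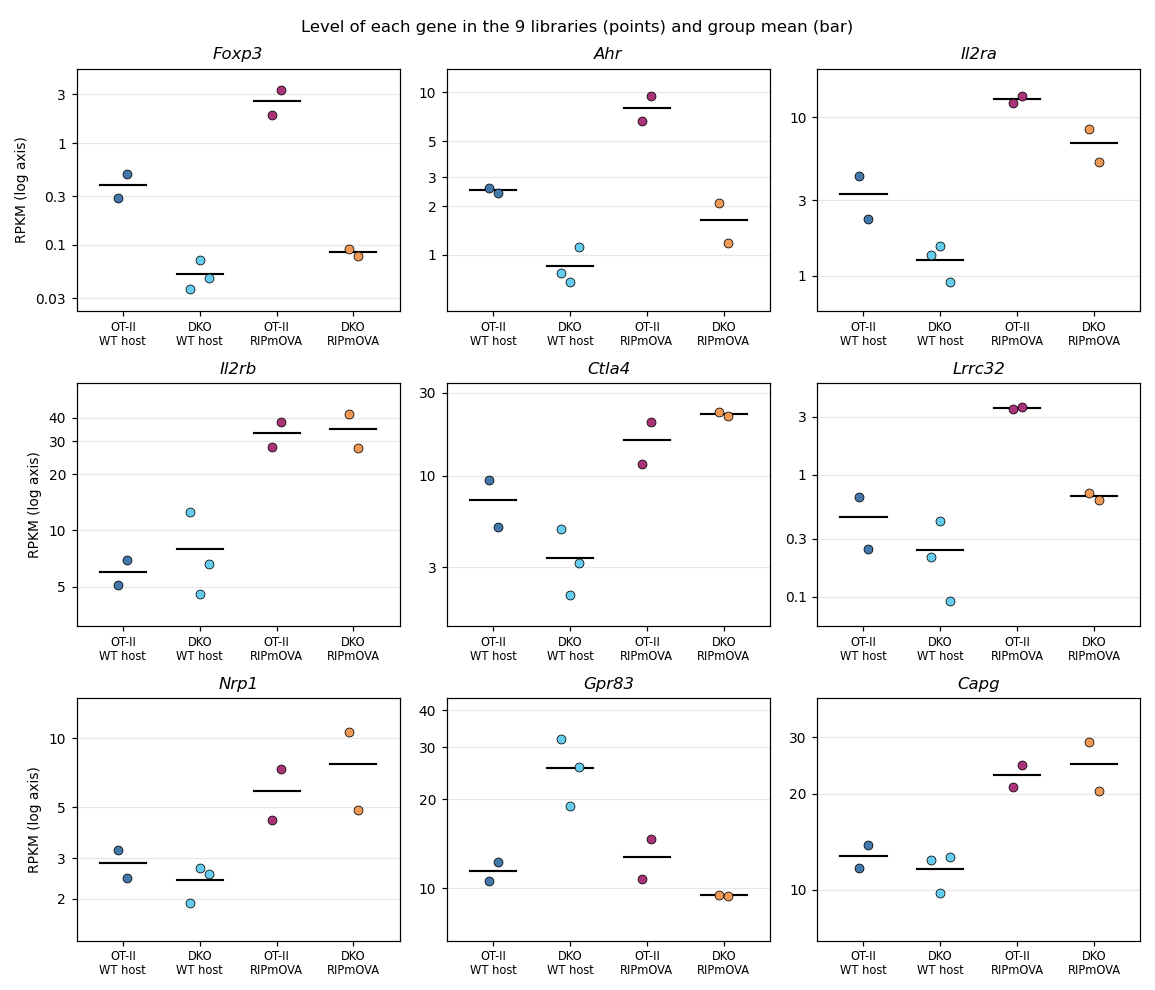
RPKM (log axis) of each of the 9 genes in the 9 libraries (points), by group, with the group mean as a bar. Foxp3, Ahr and Lrrc32 are highest in the OT-II libraries of RIPmOVA hosts, Il2rb, Nrp1 and Capg are similarly high in both genotypes of RIPmOVA hosts, and Gpr83 is highest in the DKO-labelled libraries of WT hosts.

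Foxp3 transcript, for the factor that defines the lineage, was 1.90 and 3.31 RPKM in the OT-II libraries of RIPmOVA hosts and 0.29 and 0.491 RPKM in those of WT hosts. In the DKO-labelled libraries it was 0.092 and 0.077 RPKM in RIPmOVA hosts and 0.037, 0.071 and 0.047 RPKM in WT hosts. The order OT-II RIPmOVA, OT-II WT, DKO RIPmOVA, DKO WT held with no overlap between neighbouring groups. Behind these values stood 349 and 890 reads in OT-II RIPmOVA, 50 and 126 in OT-II WT, 21 and 15 in DKO RIPmOVA and 10, 16 and 13 in DKO WT. In all 5 DKO-labelled libraries Foxp3 lay below the sensory receptor density of the same library, as it did in 1 of the 2 OT-II WT libraries, whereas both OT-II RIPmOVA libraries lay above it. At this depth the low values could not be told from such spread-out signal. The RPKM of Foxp3 rests on an exon length 2.43 times that in vM21, so its place against this density depends on the length used. The lengths of the sensory receptor genes were not compared in this way.

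In RIPmOVA hosts Foxp3 was lower in DKO-labelled than in OT-II cells, with a log2 change of -2.37 (SE 0.40, limma adjusted p = 0.02, and 0.0083 without the filter that Foxp3 passed only through the OT-II libraries of this comparison). No fold of the RPKM is given, since both DKO-labelled values lay below the sensory receptor density of their libraries (0.321 and 0.458 RPKM). Within each of the 2 RIPmOVA chimeras, which gave a library of each genotype, the difference was -2.02 and -2.72 on the log2 scale. With the chimera as a fixed block the change was the same and the adjusted p 0.12. The host effect in OT-II cells, 1.77 (SE 0.40), was not called (adjusted p = 0.065) although the groups did not overlap. It was called with a pseudocount of 1, without the filter, without the intensity trend and with voom on recovered reads (2.71, adjusted p = 0.02), and not with a pseudocount of 0.1 (adjusted p = 0.24). In DKO-labelled cells the host effect was 0.08 (95% interval -0.74 to 0.90). The interaction was -1.69 (SE 0.54, adjusted p = 0.46). The genotype call was lost without any 1 of the 4 RIPmOVA libraries (adjusted p = 0.076 to 0.21), with a pseudocount of 0.1 (adjusted p = 0.068) and with the sensory receptor reads as a covariate (-2.04, adjusted p = 0.15), and these reads were higher in both DKO-labelled libraries of RIPmOVA hosts.

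Reads from the genes that overlap Foxp3 cannot be told apart where counting ignores strand, and the use of strand is not given in the sources used here. Flicr was 0.296 and 0.867 RPKM in OT-II RIPmOVA and 0.101 to 0.182 RPKM in the other 7 libraries. It was thus highest in the libraries where Foxp3 was highest. Ppp1r3f was 1.06 and 0.912 RPKM in OT-II RIPmOVA and 0.556 and 0.617 RPKM in DKO RIPmOVA, and 0.708 to 1.07 RPKM in WT hosts. Ccdc22 stayed between 0.095 and 0.233 RPKM, with both extremes in OT-II WT. None of the 3 spanned the range of Foxp3, and their share in its reads was not tested.

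**Figure D2:**
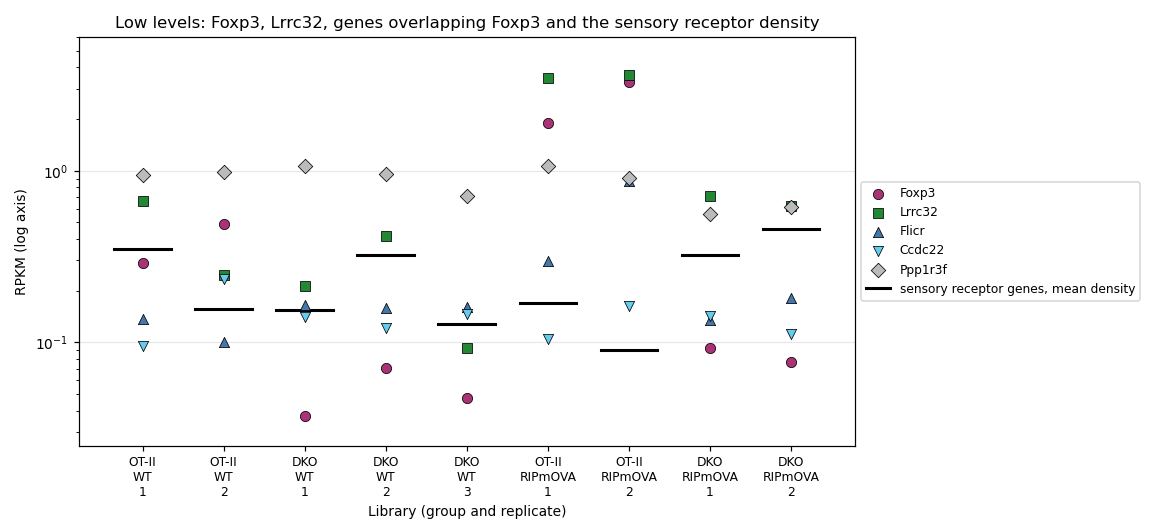
RPKM (log axis) in each library of Foxp3, Lrrc32 and 3 genes overlapping Foxp3, with the mean density of reads on sensory receptor genes as a black bar. Foxp3 lies below the bar in all 5 DKO-labelled libraries and above it in both OT-II RIPmOVA libraries, while Ppp1r3f lies above it in all 9.

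Ahr had the same order of groups as Foxp3 at higher levels. For Foxp3, the order of the DKO-labelled groups rests on values below the sensory receptor density. Ahr was 6.69 and 9.46 RPKM in OT-II RIPmOVA, 2.57 and 2.42 in OT-II WT, 2.08 and 1.18 in DKO RIPmOVA and 0.777, 0.682 and 1.12 in DKO WT. No neighbouring groups overlapped, and each DKO-labelled library was below every OT-II library. In OT-II cells Ahr was 3.24-fold higher in RIPmOVA hosts, a log2 change of 1.5 (SE 0.26, limma adjusted p = 0.026). In RIPmOVA hosts it was 4.95-fold lower in DKO-labelled cells, with a log2 change of -2.02 (SE 0.26, adjusted p = 0.0074). These 2 comparisons share the OT-II RIPmOVA libraries. In WT hosts the genotype difference was -1.15 (SE 0.24, adjusted p = 0.15), and in DKO-labelled cells the host effect was 0.63 (95% interval 0.09 to 1.17, adjusted p = 0.22). The genotype call held with the chimera as a fixed block and was lost without either OT-II RIPmOVA library (adjusted p = 0.052 and 0.075) and with the sensory receptor covariate (adjusted p = 0.18). The host call in OT-II cells was lost under 9 of 21 alternatives, among them leaving out OT-II WT replicate 1 (adjusted p = 0.097) or either OT-II RIPmOVA library (0.10 and 0.17).

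Both IL-2 receptor chains were higher in RIPmOVA hosts in either genotype. Il2ra, the inducible alpha chain, was 12.3 and 13.6 RPKM in OT-II RIPmOVA and 8.48 and 5.26 in DKO RIPmOVA. In WT hosts it was 4.25 and 2.28 RPKM in OT-II libraries, whereas DKO-labelled libraries held 1.35, 1.54 and 0.912 RPKM. All RIPmOVA libraries were above all WT-host libraries, and within each host the OT-II libraries were above the DKO-labelled ones. The host effect was 1.88 (SE 0.29, limma adjusted p = 0.016) in OT-II and 2.04 (SE 0.27, adjusted p = 0.0046) in DKO-labelled cells on the log2 scale, and their difference was 0.16 (95% interval -0.74 to 1.05). The genotype differences, -0.90 (SE 0.29, adjusted p = 0.13) in RIPmOVA and -1.06 (SE 0.27, adjusted p = 0.28) in WT hosts, were not called. Without OT-II WT replicate 2 the difference in WT hosts was -1.44 and was called (adjusted p = 0.044). The call in OT-II cells was lost without either OT-II RIPmOVA library (adjusted p = 0.12 and 0.11) and in a fit to the 4 OT-II libraries alone (adjusted p = 0.1), and that in DKO-labelled cells with the sensory receptor covariate (adjusted p = 0.064).

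Il2rb, the beta chain shared by the IL-2 and IL-15 receptors, reached 27.9 and 38.1 RPKM in OT-II RIPmOVA and 42.1 and 27.6 in DKO RIPmOVA. It was 5.10 and 6.92 RPKM in OT-II WT and 12.5, 4.59 and 6.62 in DKO WT. Hosts did not overlap, and the genotypes overlapped within each host. The host effect was 2.36 (SE 0.39, limma adjusted p = 0.02) in OT-II and 2.15 (SE 0.35, adjusted p = 0.013) in DKO-labelled cells. Between genotypes the log2 difference was 0.06 (95% interval -0.81 to 0.94) in RIPmOVA and 0.27 (95% interval -0.53 to 1.07) in WT hosts, with overlapping libraries in each. The OT-II call was lost without OT-II WT replicate 1 or either OT-II RIPmOVA library (log2 change 2.14 to 2.58) and without the intensity trend (limma adjusted p = 0.059). It was also lost with the sensory receptor covariate (1.86, adjusted p = 0.071). The same held without both WT-host libraries with most sensory receptor reads (2.16). The DKO-labelled call was lost without DKO RIPmOVA replicate 1 (adjusted p = 0.12) and without DKO WT replicate 3 (adjusted p = 0.062).

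Ctla4 was 23.2 and 22.1 RPKM in DKO RIPmOVA and 11.7 and 20.4 in OT-II RIPmOVA, and 9.48 and 5.10 in OT-II WT and 4.94, 2.08 and 3.19 in DKO WT. No neighbouring groups overlapped in this order. The DKO-labelled cells thus held both the highest and the lowest levels. Ctla4 rose with the host in DKO-labelled cells, 6.65-fold in mean RPKM and 2.63 on the log2 scale (SE 0.35, limma adjusted p = 0.0047). This call held under all 21 alternatives (adjusted p = 0.0025 to 0.042). In OT-II cells the difference was 1.10 (SE 0.38, adjusted p = 0.22), and the interaction was 1.54 (95% interval 0.38 to 2.70, adjusted p = 0.46). Between genotypes the difference was 0.53 (SE 0.38, adjusted p = 0.44) in RIPmOVA and -1.005 (SE 0.35, adjusted p = 0.49) in WT hosts.

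Lrrc32 was 3.46 and 3.63 RPKM in OT-II RIPmOVA and below 1 RPKM in the other 7 libraries. These held 0.662 and 0.245 RPKM in OT-II WT, 0.711 and 0.622 in DKO RIPmOVA and 0.213, 0.418 and 0.092 in DKO WT, and only DKO WT replicate 3 lay below the sensory receptor density of its library. OT-II RIPmOVA stood apart, and the other neighbouring groups overlapped. The host effect in OT-II cells was 2.12 (SE 0.34, limma adjusted p = 0.02), a 7.81-fold higher mean RPKM. The genotype effect in RIPmOVA hosts was -1.79 (SE 0.34, adjusted p = 0.034), a 5.32-fold lower one. Both comparisons use the OT-II RIPmOVA libraries, through which alone Lrrc32 passed the filter, and without the filter the adjusted p was 0.037 for the host and 0.045 for the genotype. In DKO-labelled cells the host effect was 0.68 (95% interval -0.03 to 1.38). The interaction was -1.44 (SE 0.46, adjusted p = 0.46). With the chimera as a fixed block the adjusted p of the genotype effect was 0.12. The genotype call was also lost without any 1 RIPmOVA library (adjusted p = 0.12 to 0.2), without DKO WT replicate 1 (0.06), with a pseudocount of 0.1 (0.11) and with the sensory receptor covariate (0.08). The host call in OT-II cells was lost without either OT-II RIPmOVA library (0.19 and 0.15), with a pseudocount of 0.1 (0.065) and in a fit to the OT-II libraries alone (0.092).

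Nrp1, the semaphorin and VEGF coreceptor, was 4.42 and 7.37 RPKM in OT-II RIPmOVA, 10.6 and 4.86 in DKO RIPmOVA, 3.25 and 2.45 in OT-II WT and 1.91, 2.73 and 2.57 in DKO WT. Hosts did not overlap and genotypes did. In DKO-labelled cells the host effect was 1.42 (SE 0.31, limma adjusted p = 0.044), a 3.22-fold higher mean. The 2 DKO RIPmOVA libraries were further apart than those of any other group. Without the higher one, replicate 1, the log2 change was 0.90 (adjusted p = 0.32), and the call was lost under 13 of 21 alternatives, among them leaving out any 1 DKO WT library (adjusted p = 0.066 to 0.15), leaving out either OT-II RIPmOVA library (0.055 and 0.058) and a correlation of the libraries of a chimera (0.051). In OT-II cells the effect was 0.90 (SE 0.34, adjusted p = 0.26). The genotype difference was 0.31 (95% interval -0.46 to 1.08) in RIPmOVA and -0.21 (95% interval -0.91 to 0.50) in WT hosts.

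Gpr83 alone of the 9 had a negative host effect in DKO-labelled cells. It was 31.9, 19.0 and 25.8 RPKM in DKO WT, 10.6 and 12.3 in OT-II WT, 10.7 and 14.7 in OT-II RIPmOVA and 9.49 and 9.42 in DKO RIPmOVA. The DKO WT libraries stood above all others, and the DKO RIPmOVA libraries lay below all others. In DKO-labelled cells Gpr83 fell by 1.36 on the log2 scale in RIPmOVA hosts (SE 0.20, limma adjusted p = 0.0089), a 2.70-fold lower mean. In OT-II cells the host effect was 0.13 (95% interval -0.37 to 0.64). The interaction, -1.49 (SE 0.30), had the lowest unadjusted p of the 9 genes (0.00079) and an adjusted p of 0.23. In WT hosts the genotype difference was 1.10 (SE 0.20, adjusted p = 0.11). The call was lost without DKO RIPmOVA replicate 1 (adjusted p = 0.067) and with the sensory receptor covariate (-1.004, adjusted p = 0.063).

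Capg was 21.0 and 24.6 RPKM in OT-II RIPmOVA, 29.1 and 20.4 in DKO RIPmOVA, 11.7 and 13.8 in OT-II WT and 12.4, 9.75 and 12.7 in DKO WT. As for Il2rb and Nrp1, hosts did not overlap and genotypes did. The host effect was 1.05 (SE 0.17, limma adjusted p = 0.013) in DKO-labelled and 0.82 (SE 0.19, adjusted p = 0.069) in OT-II cells, and the difference of these effects was 0.23 (95% interval -0.35 to 0.80). The DKO-labelled call was lost without DKO RIPmOVA replicate 1 (0.80). Without DKO WT replicate 2 the change was 0.93, under the limit of 1. It was also 0.93 without both WT-host libraries with most sensory receptor reads. Capg and Ahr are also transcribed in myeloid cells. All 6 macrophage and monocyte markers were above 0 in 8 libraries, C1qb was at 0 in DKO WT replicate 3, and their summed level was 14.0 and 25.9 RPKM in OT-II RIPmOVA, 4.75 and 10.9 in OT-II WT, 5.77 and 6.96 in DKO RIPmOVA and 2.70 to 7.21 in DKO WT. Most of it in OT-II RIPmOVA was Lyz2, at 18.7 and 8.44 RPKM. OT-II RIPmOVA was the group with the highest marker sum and also with the highest Ahr and Foxp3. Within it, replicate 1 had the higher marker sum and replicate 2 the higher Capg, Ahr and Foxp3. A group of 2 libraries cannot show how these go together. The summed level of 7 dendritic cell markers was 27.2 to 42.4 RPKM in RIPmOVA and 8.99 to 18.1 in WT hosts, most of it Cd74. Of the 7, 2 were at 1 RPKM or more in both OT-II RIPmOVA libraries, DKO WT replicate 2 and DKO RIPmOVA replicate 2. In the other libraries 1 was. The part of these cells in the results was not tested.

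**Figure D3:**
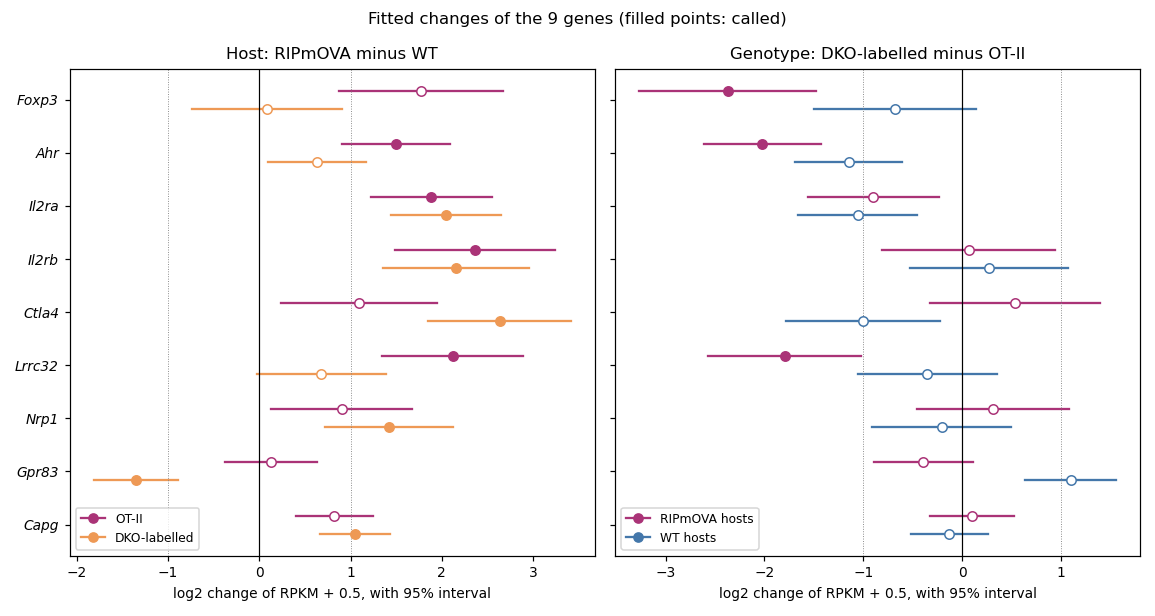
Fitted log2 change (point) and 95% interval (line) of each of the 9 genes, for the host effect in each genotype (left) and the genotype effect in each host (right), with filled points for called changes and dotted lines at the limit of 1. The fitted host effects of Foxp3, Ahr and Lrrc32 are larger in OT-II cells. Those of Ctla4 and Gpr83 lie further from 0 in DKO-labelled cells. No interaction of host and genotype was called for any of the 9 genes.

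Host and genotype together were read from the interaction and from the comparison without antigen, where no gene of the 9 passed. At an unadjusted p under 0.05 the interaction held 5 of the 9 (Foxp3, Ctla4, Lrrc32, Ahr and Gpr83), where 9.32% of all genes tested did. In WT hosts 4 of the 9 (Il2ra, Ctla4, Ahr and Gpr83) were below that p, against 7.89% of all genes. Foxp3 and Lrrc32 entered the test only through the OT-II libraries of RIPmOVA hosts, which the interaction uses. Their part in the interaction count cannot be read against its share. Neither count survives the adjustment over all genes, so a host effect called in 1 genotype is not shown to differ from that in the other. Voom on recovered reads also called 0 of the 9 in either comparison, and the interaction had 0 called members under every alternative run.

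Other genes of the Treg programme were taken from 7 lists by role with 86 genes, of which 71 could be tested. The lists were chosen with earlier results of these data known, so their counts are no test against the shares over all genes. In OT-II cells 14 of the 71 were called higher in RIPmOVA hosts and 0 lower, where 1.05% of all genes tested were called higher, and their median log2 change was 0.38 against -0.02 over all genes. In DKO-labelled cells 13 were higher and 0 lower, where 1.52% of all genes were higher, with a median of 0.29 against 0.03. Of these 13, Plagl1 and Lag3 would not have passed the filter without the DKO RIPmOVA libraries, where they were high. Between genotypes in RIPmOVA hosts 2 were lower, where 0.562% of all genes were, and 0 higher (median -0.17 against 0.04), and 0 were called in WT hosts or for the interaction.

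Surface and effector genes held most of these calls, with 9 of 21 higher in each genotype. Tnfrsf9 (4-1BB) rose by 4.28 (SE 0.34) in OT-II and 2.82 (SE 0.31) in DKO-labelled cells, and Tnfrsf4 (OX40) by 2.44 (SE 0.23) and 3.43 (SE 0.21). Nt5e, the CD73 enzyme that makes adenosine, rose by 2.67 and 3.42, and the GITR gene Tnfrsf18 by 1.16 and 1.46. Cd83 (3.06 and 2.57), Ecm1 (1.28 and 1.15) and Tnfrsf1b (1.73 and 1.47) were also called in both. Itgae, the CD103 integrin chain, rose by 2.53 in OT-II cells and was 0.55 (SE 0.30, limma adjusted p = 0.35) in DKO-labelled cells. Penk, a proenkephalin gene, was called in OT-II cells (4.77, SE 0.90), and Lag3 (2.12) and Ebi3 (2.00) in DKO-labelled cells. For the interaction 0 of the listed genes were called, so a call in 1 genotype only is not shown to be a difference between genotypes. In RIPmOVA hosts Tnfrsf9 (-3.49, SE 0.34, adjusted p = 0.0019) and Itgae (-2.43, SE 0.33, adjusted p = 0.0081) were lower in DKO-labelled cells, beside Foxp3, Ahr and Lrrc32.

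Among 10 transcription factors tested, 3 were higher in each genotype. Ikzf2 (Helios) rose by 3.71 (SE 0.36) in OT-II and 3.46 (SE 0.33) in DKO-labelled cells, and Ikzf4 (Eos) by 1.37 and 1.47. Bcl6 (1.12) was called in OT-II and Plagl1 (1.90) in DKO-labelled cells, where it was 2.47 and 1.20 RPKM in RIPmOVA hosts and at or below 0.304 RPKM in the other 7 libraries. Of 18 genes for the induction and stability of Foxp3, among them the STAT5, SMAD, RUNX and REL factors, Uhrf1 alone was called, in OT-II cells (1.04). Of 5 IL-2 feedback genes the STAT5 target Cish was called, at 2.30 (SE 0.19) and 1.95 (SE 0.18) in the respective genotypes. None of the 5 AHR pathway genes, 8 partners of LRRC32, NRP1 and CTLA4, or 4 relatives of CAPG tested was called in any comparison, with Cyp1a1, Cyp1b1 and Ahrr among the genes below the filter.

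**Figure D4:**
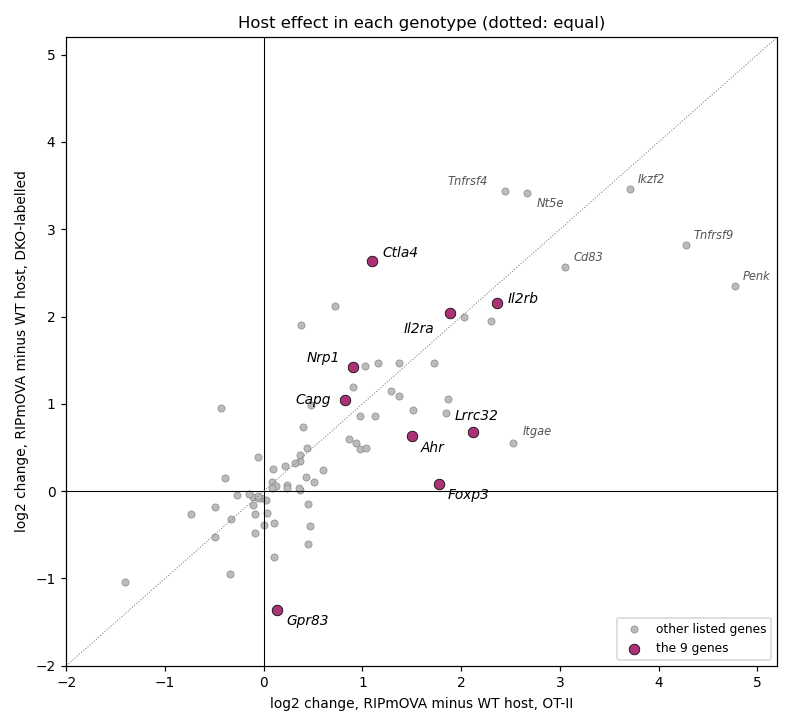
Host effect (log2 change, RIPmOVA minus WT hosts) in OT-II cells on the x axis and in DKO-labelled cells on the y axis, for the 9 genes (large points) and the 71 other listed genes (small points), with a dotted line of equal effects. Il2ra and Il2rb lie near the line, Foxp3, Lrrc32 and Ahr below it, Ctla4 above it, and Gpr83 has a negative value in DKO-labelled cells only.

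Across the 9 libraries, values of log2(RPKM + 0.5) of the 9 genes fell into related patterns, given here as a description since the points share hosts, chimeras and depth. Pearson's r was 0.95 between Foxp3 and Ahr, 0.90 between Foxp3 and Lrrc32 and 0.89 between Ahr and Lrrc32. Foxp3 and Lrrc32 passed the filter only through the OT-II libraries of RIPmOVA hosts, where they are high. Their r with each other, and with other genes high there, is therefore no support for a link. It was 0.96 between Il2rb and Capg, 0.90 between Nrp1 and Capg and 0.89 between Ctla4 and Capg. Il2ra lay between, with 0.90 to Lrrc32 and 0.86 to Ctla4. Gpr83 had negative values with all 8 others, from -0.72 with Il2ra to -0.27 with Foxp3.

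The kept genes with the highest r to each member over the 9 libraries were as follows. Those nearest to Foxp3 and Lrrc32 carry the same limit from the filter. For Foxp3 they were Cxcr6 (0.99), Trpc4ap (0.97) and Fgl2 (0.97), for Ahr Gsto1 (0.98), H13 (0.98) and Asap1 (0.97), and for Lrrc32 Arhgap20 (0.99), Trpm1 (0.99) and Ptger3 (0.99). Il2ra was nearest to Arhgap18 (0.98), Zfr (0.98) and Tnfrsf1b (0.98), and Il2rb to Tbc1d4 (0.99), Ifi211 (0.98) and Smim3 (0.96). Ctla4 was nearest to Kcnip2 (0.98), Ptger4 (0.96) and Birc3 (0.96), Nrp1 to Casp1 (0.97), Tpm4 (0.96) and Scin (0.96), and Capg to Ak3 (0.98), Hopx (0.98) and Ifi211 (0.97). Gpr83 had the weakest such values, with Ilrun (0.94), Vim (0.94) and Krtcap2 (0.93). Ifi211 thus stood near both Il2rb and Capg.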

How the data were processed

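Per the labels and the study's methods, sorted cells were lysed, cDNA was made with the SMART-seq v4 kit and Nextera XT libraries were sequenced with paired ends. Alignment by the authors used STAR, mm10 and GENCODE vM17. Duplicates were removed with Picard, and GenomicRanges gave the exonic reads per Entrez gene. The values deposited by the authors are RPKM per gene, rounded to 3 decimals. Neither aligner and Picard versions nor strand settings are given in the sources used here. Each table column carries the title of 1 sample.

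Depth was recovered from the RPKM steps of 1 read, and 100% of low values were whole within 0.1 read. The precision of low values covers counting error only. Of 24594 genes, 11569 had 1 RPKM or more in at least 2 libraries and were tested as log2(RPKM + 0.5) with limma 3.58.1 in R 4.3.3 (group-means model over 9 libraries, eBayes with trend, two-sided, Benjamini-Hochberg over all genes). The fit was tested on simulated data, where calls on genes with few reads on average over all libraries were less reliable than those on others. Foxp3 had 10 to 21 reads in DKO-labelled libraries and more in OT-II libraries, so its average does not describe each group. The spread between libraries is that between chimeras. OT-II and DKO libraries with 1 mouse number in the labels come from the same chimera, which pairs genotypes and not hosts. The deviations of such libraries from their group means correlated at -0.239 to 0.006, and limma's consensus correlation was 0.104. Libraries of a group correlated at 0.959 to 0.986 and differed by more than sampling noise. Alternatives were other pseudocounts and filters, median-of-ratios and quantile scaling, voom on recovered reads, no trend, a sensory receptor covariate, chimera blocks, the libraries compared alone, and leaving out libraries. The fixed chimera block and leaving out both WT-host libraries with most sensory receptor reads were chosen after seeing the data. All 9 genes were named, with the targeted genes, the 3 genes most like each and the listed genes that were called. The genes and lists were chosen with earlier results of these data known. Motifs were searched in RefSeq promoter windows (GRCm38.p6) of 32851 starts, and positions come from GENCODE vM21. Python 3.11.15 with pandas 2.3.3 and matplotlib 3.10.9 was used.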

Additional observations from a re-analysis of the deposited data

How the results depend on the processing

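None of the 13 called changes turned direction under its 20 to 22 alternatives. The number of the 9 genes called moved as follows. In the host comparison of OT-II cells (4 called) it was 2 with a filter at RPKM 5. Under that filter Lrrc32 was not fitted and Ahr was not called (limma adjusted p = 0.069). Foxp3, uncalled in the main fit, was not fitted either. The number was 2 with the sensory receptor covariate and 1 with the 4 OT-II libraries alone. It also fell without both WT-host libraries with most sensory receptor reads (chosen after seeing the data). It rose to 5, with Foxp3, with a pseudocount of 1 and with voom. In the host comparison of DKO-labelled cells (6 called) the number was 3 with the covariate. Between genotypes in RIPmOVA hosts (3 called) it was 1 with a pseudocount of 0.1, 1 with the filter at RPKM 5, 0 with the covariate and 1 with the replicate block by chimera as a fixed effect. With 2 libraries in a group, the covariate and the group share much of their variation. The cause of the other moves was not tested. The replicate block as a correlation of libraries of a chimera gave 4, 5, 3, 0 and 0 calls and lost only Nrp1.

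Leaving out 1 library gave 0 to 4 calls for the host in OT-II cells, 2 to 6 in DKO-labelled cells, 0 to 3 between genotypes in RIPmOVA hosts, 0 to 1 in WT hosts and 0 for the interaction. All changes that turned sign were uncalled. With the covariate these were Gpr83 in OT-II cells (-0.18) and between genotypes in RIPmOVA hosts (0.16) and the interactions of Il2ra (-0.32) and Il2rb (0.86). With quantile scaling they were the host effects of Foxp3 (-0.21) and Lrrc32 (-0.029) in DKO-labelled cells, and without both WT-host libraries with most sensory receptor reads the interaction of Il2ra (-0.12). Leaving out 1 library, Gpr83 in OT-II cells ranged from -0.086 to 0.35, the genotype effects in RIPmOVA hosts from -0.24 to 0.36 for Il2rb, -0.22 to 0.84 for Nrp1 and -0.15 to 0.35 for Capg, and that of Il2rb in WT hosts from -0.10 to 0.58. The interactions ranged from -0.23 to 0.54 for Il2ra, -0.52 to 0.16 for Il2rb, -0.0067 to 1.05 for Nrp1 and -0.024 to 0.48 for Capg. The cause was not tested. Groups of 2 or 3 libraries limit every estimate, and the 10 to 21 reads of Foxp3 in DKO-labelled libraries limit its folds.

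Over all genes tested, the calls that the shares in the report rest on moved too. The host comparison of OT-II cells had 142 calls, 87 with the covariate, 61 without both WT-host libraries with most sensory receptor reads, 31 with the 4 OT-II libraries alone and 50 to 296 leaving out 1 library. That of DKO-labelled cells had 194 calls, 87 with the covariate, 565 without both of those WT-host libraries and 98 to 259 leaving out 1 library. Between genotypes in RIPmOVA hosts there were 124 calls, 18 with the covariate, 201 with quantile scaling, 585 without both of those WT-host libraries, 220 with the 4 libraries compared alone and 21 to 217 leaving out 1 library, and in WT hosts 7 became 100 without OT-II WT replicate 2 and 2 with the fixed chimera block or with the libraries compared alone. The interaction had 2 calls, 159 without OT-II WT replicate 2, 6 without DKO RIPmOVA replicate 2, 2 without DKO RIPmOVA replicate 1 and 0 without any 1 of the other 6 libraries, 8 with no filter and 0 with a pseudocount of 0.1, the filter at RPKM 5, voom, the covariate or the fixed chimera block. Quantile scaling also moved the share of higher calls, from 176 of 194 to 164 of 211 by host in DKO-labelled cells and from 59 of 124 to 64 of 201 by genotype in RIPmOVA hosts.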
